A study of Rattus norvegicus with 32 samples.

Results

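The Fos and Jun genes encode the subunits of activator protein 1 (AP-1), and all 7 of them, Fos, Fosb, Fosl1, Fosl2, Jun, Junb and Jund, were followed here in the nucleus accumbens shell of the rat. They were taken by symbol from a table of 34322 genes, and all 7 were present and passed the filter on low counts, as did 17059 genes in all. The study asked how cannabidiol (CBD), a non-intoxicating constituent of cannabis, acts on anxiety evoked by a learned cue. Wild-type rats received shocks together with either a lemon odour, the anxiety cue, or a neutral cue. Each rat then met its cue in anxiety tests after CBD or vehicle, and the accumbens shell was dissected once the final shock had been given. Every group had therefore been shocked, and no library of an unshocked rat was analysed here. The groups were CBD with the anxiety cue, vehicle with the anxiety cue, CBD with the neutral cue, and vehicle with the neutral cue, with 8 libraries each. Whether every library is a different animal is not stated in the labels, so the p-values measure the spread between libraries, part of which may be technical.

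AP-1 is a pair of leucine-zipper proteins on DNA. Fos proteins pair with Jun proteins but not with each other, whereas Jun proteins can also pair among themselves. Transcription of Fos, Fosb and Junb rises within minutes of neuronal firing and soon stops, which makes them immediate early genes, whereas Jund is made more steadily. In the nucleus accumbens a truncated FosB protein accumulates with repeated stimulation, and AP-1 sites have been studied there as part of the response to drugs and stress.

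Sequences of the 250 bases upstream of the annotated start were read from RefSeq (build GRCr8) for 5 members, Fosb, Fosl1, Fosl2, Junb and Jund. They are shown for Junb and Jund, the Jun genes in that table. Their spread between all 32 libraries differed (within-group SD of log2 CPM 0.51 and 0.13). Capitals mark the cyclic AMP response element TGACGTCA and its part TGACG, searched on both strands so that CGTCA is the same part read on the other strand.
Junb, chr19:40080876-40081125, plus strand: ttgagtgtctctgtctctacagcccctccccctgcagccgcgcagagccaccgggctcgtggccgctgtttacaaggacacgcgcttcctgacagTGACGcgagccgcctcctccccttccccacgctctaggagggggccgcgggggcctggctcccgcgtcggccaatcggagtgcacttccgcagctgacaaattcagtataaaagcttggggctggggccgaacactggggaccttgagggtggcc
Jund, chr16:18769772-18770021, minus strand: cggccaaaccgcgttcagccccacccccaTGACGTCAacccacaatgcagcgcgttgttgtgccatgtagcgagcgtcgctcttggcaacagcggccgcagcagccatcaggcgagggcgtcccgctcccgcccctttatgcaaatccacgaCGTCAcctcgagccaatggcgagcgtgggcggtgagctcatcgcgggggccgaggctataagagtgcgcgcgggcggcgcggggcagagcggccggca
The Jund window held 1 complete element, at positions -221 to -214 from the start, which is counted again as 2 overlapping parts, and 1 further part at positions -98 to -94. The Junb window held 1 part, at positions -155 to -151. The Fosl1 window held 2 parts, and the Fosl2 and Fosb windows held none. The complete element was present in 1.59% and the part in 18.2% of 33469 rat promoter windows of this length. The AP-1 element TGANTCA, present in 6.34% of windows, and the CArG box, the binding site of serum response factor, present in 1.5%, were in none of the 5. A match is a run of letters and not a site shown to be bound, and the annotated Fosb start lies inside the span of the gene.

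Library totals ran between 11.7 and 24.0 M counts. Some libraries stood apart by markers of neighbouring tissue, given here as plain CPM, which are counts scaled to the library total without TMM factors. Slc17a6, which loads glutamate into vesicles in many subcortical neurons, was at 20 plain CPM or more in 6 libraries, namely libraries 2 and 7 of CBD with the anxiety cue, library 5 of vehicle with the anxiety cue, and libraries 4, 7 and 8 of vehicle with the neutral cue. None was from CBD with the neutral cue. In these 6, the summed level of all 11 medium spiny neuron markers was 1298 to 2857 plain CPM, against 4487 to 8111 in the other 26, and Drd1, the D1 dopamine receptor, was 57.3 to 182.8 against 258.2 to 459.9. The 6 septal or subcortical markers summed to 174.6 to 237.6 in the 6 and 84.6 to 161.9 in the 26, and the 7 oligodendrocyte markers to 9324 to 11934 and 3611 to 9372. Library 6 of CBD with the neutral cue had Slc17a7, the cortical transporter, at 877.02 plain CPM. Leaving out these 7 libraries keeps 25: 6, 7, 7 and 5 in the order of the groups above. Library 3 of CBD with the anxiety cue and library 7 of CBD with the neutral cue were kept, with Slc17a7 at 58.3 and 62.3. Markers of liver and fat were not part of the rule. Over all 8 libraries of each group, in the same order, summed liver markers had medians of 52.5, 12.6, 83.3 and 7.15. Summed fat markers had medians of 7.23, 6.21, 6.07 and 50.0. The limit of 20 lies close to library 7 of CBD with the anxiety cue, which had 20.004 plain CPM but 19.6 CPM after TMM scaling. The scale was chosen after both counts of libraries had been seen, and the other reading gives 5 libraries high in Slc17a6 and keeps 26. Where the 2 readings differ, both values are given for the main results below. Other values, such as most medians of members in the 6 and the other 26, rest on plain CPM alone. In bulk tissue, fewer cells of a type and less RNA per cell cannot be told apart.

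Fosb and Junb divided the libraries along this marker. Member levels are given in TMM-scaled CPM. Fosb, the source of full-length and truncated FosB, was at 12.1 to 15.9 CPM (median 13.8) in the 6 libraries high in Slc17a6 and at 24.7 to 54.3 CPM (median 37.6) in the other 26. Junb, a Jun protein induced by activity, was at 35.6 to 54.2 CPM (median 47.7) in the 6 and at 65.1 to 147.5 CPM (median 97.0) in the 26. Neither pair of ranges overlapped, and both genes were lower in the 6. Of all 17059 genes, 3.52% were likewise lower without overlap and 3.49% higher, 7.01% in either direction. This separation rests on the reading of the limit. On TMM-scaled CPM, with 5 libraries against 27, Fosb was at 12.1 to 15.9 CPM in the 5 and 15.3 to 54.3 in the 27, and Junb at 35.6 to 54.2 and 52.4 to 147.5, so that both ranges overlapped. No member was then separated, against 3.53% of all genes lower, 2.74% higher and 6.27% in either direction.

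The other members followed this divide less or not at all. Fosl2, which encodes Fra-2, was at 31.6 to 37.5 CPM (median 35.7) in the 6 and 35.9 to 167.6 (median 63.0) in the 26. Those ranges overlapped. On TMM-scaled CPM they were 32.9 to 37.5 in the 5 and 31.6 to 167.6 in the 27. Fos, the best known marker of recent neuronal firing, had a higher median in the 6, at 21.5 CPM against 12.2 in the 26, and its ranges of 12.1 to 24.2 and 6.85 to 36.9 overlapped. Jun had medians of 60.1 and 50.5 CPM, Jund 135.0 and 140.9, and Fosl1, which encodes Fra-1, 3.65 and 4.44, all with overlapping ranges. The ratio of Fos to Fosb, compared between libraries and not as a level of one gene against the other, was 0.787 to 1.97 in the 6 and 0.201 to 0.744 in the 26. Its denominator, Fosb, was itself lower without overlap in the 6, and the ratio was not set against those of other gene pairs. On TMM-scaled CPM it was 1.08 to 1.97 in the 5 and 0.201 to 0.787 in the 27. The part of these libraries' tissue makeup in the member levels was not tested. Fits without these libraries or with marker covariates are given below for some comparisons. They cannot tell tissue makeup from treatment, because the libraries high in Slc17a6 were spread unevenly over the groups.

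**Figure D1:**
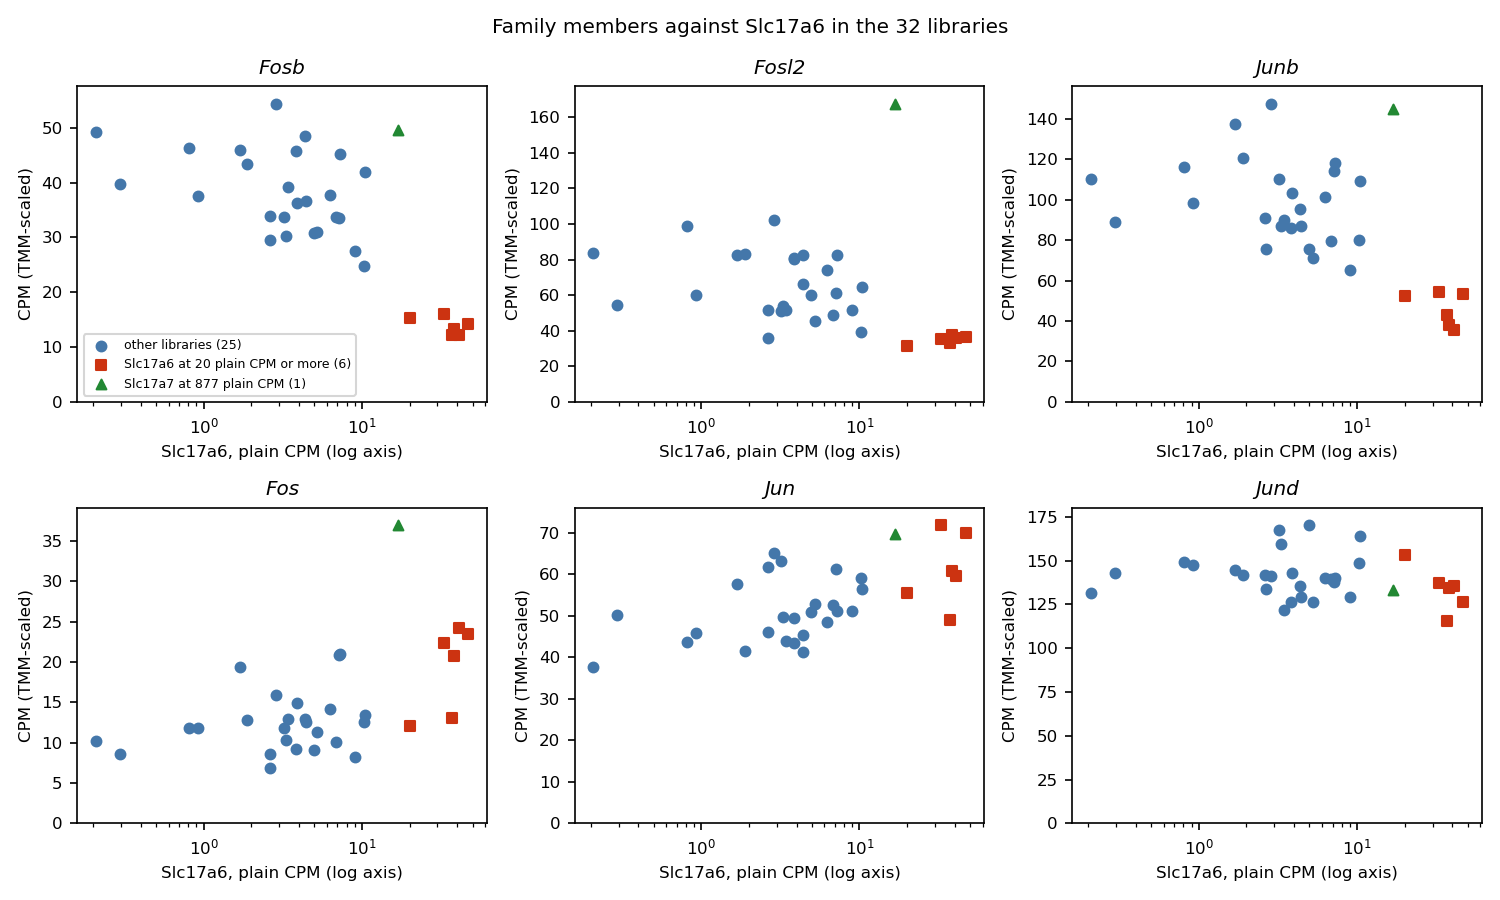
TMM-scaled CPM of 6 family members (y axis, linear from 0) against Slc17a6 in plain CPM (x axis, log scale), 1 point a library. The 6 libraries at 20 plain CPM or more (squares) lie at 12.1 to 15.9 CPM of Fosb and 35.6 to 54.2 CPM of Junb, below the others; the triangle is library 6 of CBD with the neutral cue.

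Over all 32 libraries, those high in Slc17a6 or Slc17a7 included, the members differed widely in how far they varied within a group. The within-group SD of log2 CPM was 0.60 for Fosb, 0.55 for Fos, 0.54 for Fosl2 and 0.51 for Junb, above those of 89.8%, 86.8%, 86.0% and 83.6% of tested genes. It was 0.29 for Fosl1 and 0.24 for Jun, above those of 57.2% and 49.1% of genes, near the median of all genes, which was 0.25. It was 0.13 for Jund, above that of 13.1% of genes. In TMM-scaled CPM, the SD of Junb was 27.0, 27.5, 29.4 and 30.9, in the order of the groups above. Without the 7 libraries set apart it was 8.92, 25.3, 25.9 and 14.0. For Jund it was 7.14, 15.8, 5.89 and 18.5 in all libraries, and 5.89, 16.5, 5.69 and 15.4 without the 7. Over the 32 libraries the highest value was 5.39 times the lowest for Fos, 5.30 times for Fosl2 and 1.47 times for Jund. Counts were between 41 and 134 for Fosl1 and between 1384 and 3319 for Jund, so that counting error weighs most on Fosl1.

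**Figure D2:**
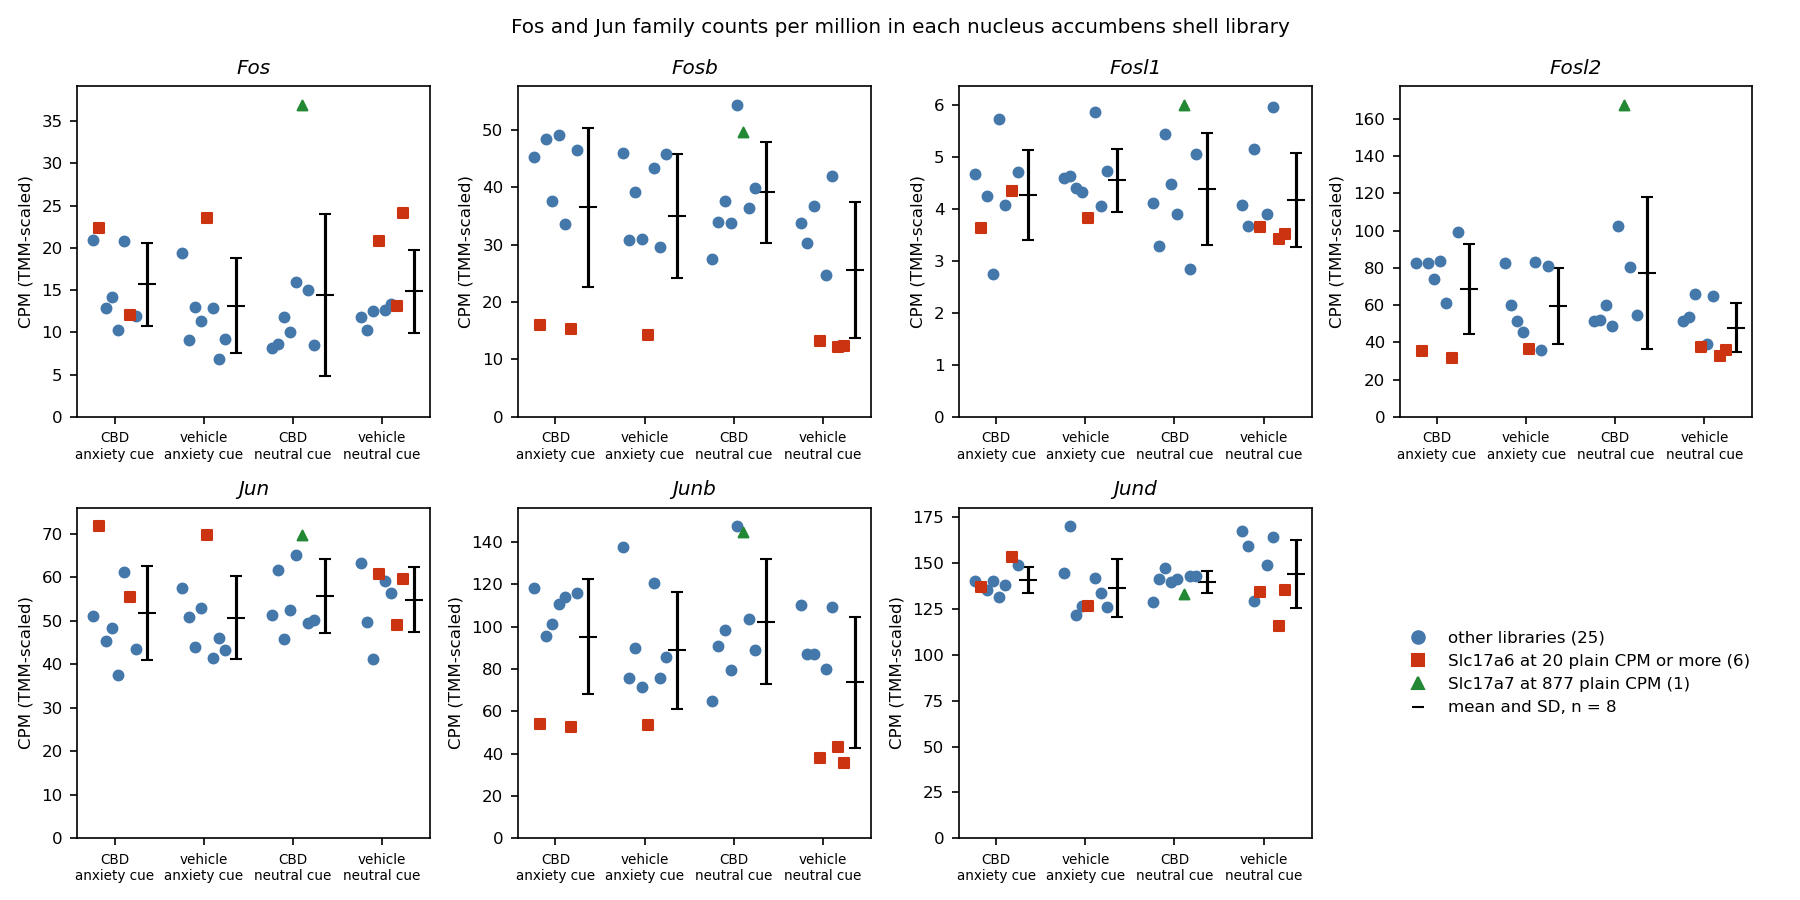
TMM-scaled CPM of each member (y axes, from 0) in the 32 libraries by group, 1 point a library, with the mean and SD of 8 libraries beside each group. The squares, libraries high in Slc17a6, are the lowest Fosb and Junb values of their groups, and the triangle is the highest Fos and Fosl2 value of all, at 36.9 and 167.6 CPM.

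CBD was first compared with vehicle in rats given the anxiety cue. All 7 members differed by less than the spread between libraries. Among Fos proteins, Fos was at 10.2 to 22.3 CPM (median 13.5) with CBD and 6.85 to 23.5 (median 12.1) with vehicle, and averaged 15.7 ± 4.87 and 13.1 ± 5.62 CPM (SD, n = 8 each). Fosb averaged 36.5 ± 13.9 CPM with CBD and 35.0 ± 10.8 CPM with vehicle, and Fosl2 averaged 68.7 ± 24.2 and 59.5 ± 20.3 CPM. The groups overlapped for each of these genes. Among Jun proteins, Junb averaged 95.3 ± 27.0 CPM with CBD and 88.8 ± 27.5 CPM with vehicle, and Jund 140.6 ± 7.14 and 136.4 ± 15.8 CPM. The log2 fold changes were 0.25 (SE 0.278) for Fos, 0.21 (SE 0.257) for Fosl2, 0.10 (SE 0.235) for Junb and 0.06 (SE 0.267) for Fosb. Those of Jund, Jun and Fosl1 were 0.04, 0.03 and -0.09. In the 25 libraries the values were 0.38 for Fos, 0.37 for Fosl2, 0.23 for Junb and 0.20 for Fosb, and in the 26 of the other reading 0.34, 0.24, 0.12 and 0.06. In edgeR's quasi-likelihood test 0 of 7 members passed an adjusted p of 0.05, against 0% of all genes, and 0 of 7 were at an unadjusted p under 0.05, against 1.58% of all genes. In the 25 libraries 0 of 7 were at that threshold as well, against 2.99%, with unadjusted p = 0.0636 for Fosl2 and 0.0737 for Fos in edgeR. DESeq2 called 0 genes.

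CBD was then compared with vehicle in rats given the neutral cue, where the estimates for 3 members were larger. Fosl2 was at 49.0 to 167.6 CPM (median 57.4) with CBD and 32.9 to 66.1 CPM (median 45.3) with vehicle, and averaged 77.2 ± 40.9 and 47.7 ± 13.2 CPM (SD, n = 8 each). Fosb was at 27.6 to 54.3 CPM (median 36.9) with CBD and 12.1 to 42.0 CPM (median 27.5) with vehicle, and averaged 39.1 ± 8.81 and 25.6 ± 11.9 CPM. Junb was at 65.1 to 147.5 CPM (median 94.6) with CBD and 35.6 to 110.2 CPM (median 83.6) with vehicle, and averaged 102.4 ± 29.4 and 73.8 ± 30.9 CPM. The groups overlapped for all 3. For Fosl2, Fosb and Junb alike, the lowest vehicle values were those of libraries 4, 7 and 8, which were high in Slc17a6.

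The log2 fold change was 0.69 for Fosl2 (SE 0.259, unadjusted p = 0.0118, adjusted p = 0.140), 0.61 for Fosb (SE 0.269, unadjusted p = 0.0312, adjusted p = 0.186) and 0.47 for Junb (SE 0.236, adjusted p = 0.229) in edgeR's quasi-likelihood test. Fos, Fosl1, Jun and Jund were at -0.05, 0.07, 0.02 and -0.05. No member passed the adjusted threshold, against 0% of all genes. At an unadjusted p under 0.05 were 2 of 7, Fosl2 and Fosb, both higher, against 22.6% of all genes in either direction and 10.5% higher. DESeq2 called 2.05% of all genes and 0 of 7 members. Without the 7 libraries set apart by Slc17a6 or Slc17a7 the log2 fold changes were 0.21 for Fosl2, 0.16 for Fosb and 0.013 for Junb, and with the 26 libraries of the other reading they were 0.21, 0.16 and 0.013. With septal, cortical, oligodendrocyte and choroid plexus marker levels as covariates they were -0.023, -0.060 and -0.045. Only 2 of the 6 cortical and 3 of the 6 choroid plexus markers passed the filter and entered these covariates. Without library 6 of CBD with the neutral cue alone, that of Fosl2 was 0.43 and that of Fos -0.42.

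The anxiety cue was compared with the neutral cue in vehicle-treated rats. Fosb averaged 35.0 ± 10.8 CPM with the anxiety cue and 25.6 ± 11.9 CPM with the neutral cue (SD, n = 8 each), Fosl2 59.5 ± 20.3 and 47.7 ± 13.2 CPM, and Junb 88.8 ± 27.5 and 73.8 ± 30.9 CPM. Fos, the usual readout of an acute response, averaged 13.1 ± 5.62 and 14.8 ± 4.89 CPM. The groups overlapped for each member. The log2 fold changes were 0.45 for Fosb (SE 0.269), 0.32 for Fosl2 (SE 0.258), 0.27 for Junb (SE 0.236) and -0.18 for Fos (SE 0.278), with edgeR adjusted p-values of 0.442, 0.552, 0.583 and 0.770. Of the 7 members 0 were called, against 0% of all genes, and 0 were at an unadjusted p under 0.05, against 12.7%. DESeq2 called 0 genes. In the 25 libraries the values were 0.17 for Fosb, 0.17 for Fosl2 and -0.031 for Junb, and they were the same to 2 decimals in the 26. There 1 of 7 members, Jund, passed an unadjusted threshold of 0.05, against 11.4% of all genes in the 25. Jund was at -0.17 with an unadjusted edgeR p of 0.0241 in the 25 and 0.0248 in the 26, and at -0.08 in all 32. This comparison and the one of CBD with vehicle under the neutral cue share the 8 vehicle neutral-cue libraries.

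The anxiety cue was also compared with the neutral cue in CBD-treated rats, where the groups overlapped for each member. Fosb averaged 36.5 ± 13.9 CPM with the anxiety cue and 39.1 ± 8.81 CPM with the neutral cue, and Junb 95.3 ± 27.0 and 102.4 ± 29.4 CPM (SD, n = 8 each). Fos averaged 15.7 ± 4.87 and 14.4 ± 9.58 CPM. The log2 fold changes were 0.13 for Fos, -0.10 for Fosb, -0.17 for Fosl2 and -0.10 for Junb, and 0 of 7 members were called by edgeR, against 0% of all genes, or were at an unadjusted p under 0.05, against 3.94%. DESeq2 called 0 genes. Over the 25 libraries 1 of 7, Fos, passed an unadjusted threshold of 0.05, against 3.17% of all genes. Fos was then at 0.45 with an unadjusted edgeR p of 0.0405, and with the 26 libraries of the other reading at 0.40 with an unadjusted p of 0.0529. Jund was at 0.0083 in all 32, -0.017 in the 25 and 0.0027 in the 26.

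The difference between the 2 CBD effects, that with the anxiety cue minus that with the neutral cue, was tested as an interaction. It was -0.55 for Fosb (SE 0.379), -0.48 for Fosl2 (SE 0.364), -0.37 for Junb (SE 0.333) and 0.30 for Fos (SE 0.393) on the log2 scale, with edgeR adjusted p-values of 0.486, 0.522, 0.592 and 0.718. Of the 7 members 0 were called, against 0% of all genes, and 0 were at an unadjusted p under 0.05, against 13.8%. DESeq2 called 0.0645% of all genes and 0 members. In the 25 libraries the values were 0.04 for Fosb, 0.15 for Fosl2, 0.21 for Junb and 0.52 for Fos, with 0 of 7 members at an unadjusted p under 0.05 against 7.48% of all genes. In the 26 of the other reading they were -0.097, 0.023, 0.10 and 0.48. Averaged over both cues, the CBD effect was 0.45 for Fosl2 (SE 0.182, unadjusted p = 0.0191, edgeR adjusted p = 0.655), 0.33 for Fosb and 0.29 for Junb. Here 0 of 7 members were called, against 0% of all genes, and 1 of 7 was at an unadjusted p under 0.05, against 7.27%, and DESeq2 called 0.0762% of all genes and 0 members. Over the 25 libraries Fosl2 was again the 1 member past that threshold, against 5.6% of all genes. It was at 0.29 with an unadjusted edgeR p of 0.0464 there, and in the 26 at 0.22 with an unadjusted p of 0.17. Jun was at 0.026 in all 32, -0.0078 in the 25 and 0.0084 in the 26. For the cue effect averaged over CBD and vehicle, edgeR and DESeq2 called 0 of 7 members, against 0% of all genes, and 0 of 7 were at an unadjusted p under 0.05 in edgeR, against 3.63%. Over the 25 libraries 1 of 7, Jun, passed that threshold, against 6.74%. Jun was at -0.18 with an unadjusted edgeR p of 0.0364 there, at -0.16 with an unadjusted p of 0.0515 in the 26, and at -0.11 in all 32. Fos was at -0.025 in all 32, 0.19 in the 25 and 0.17 in the 26.

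**Figure D3:**
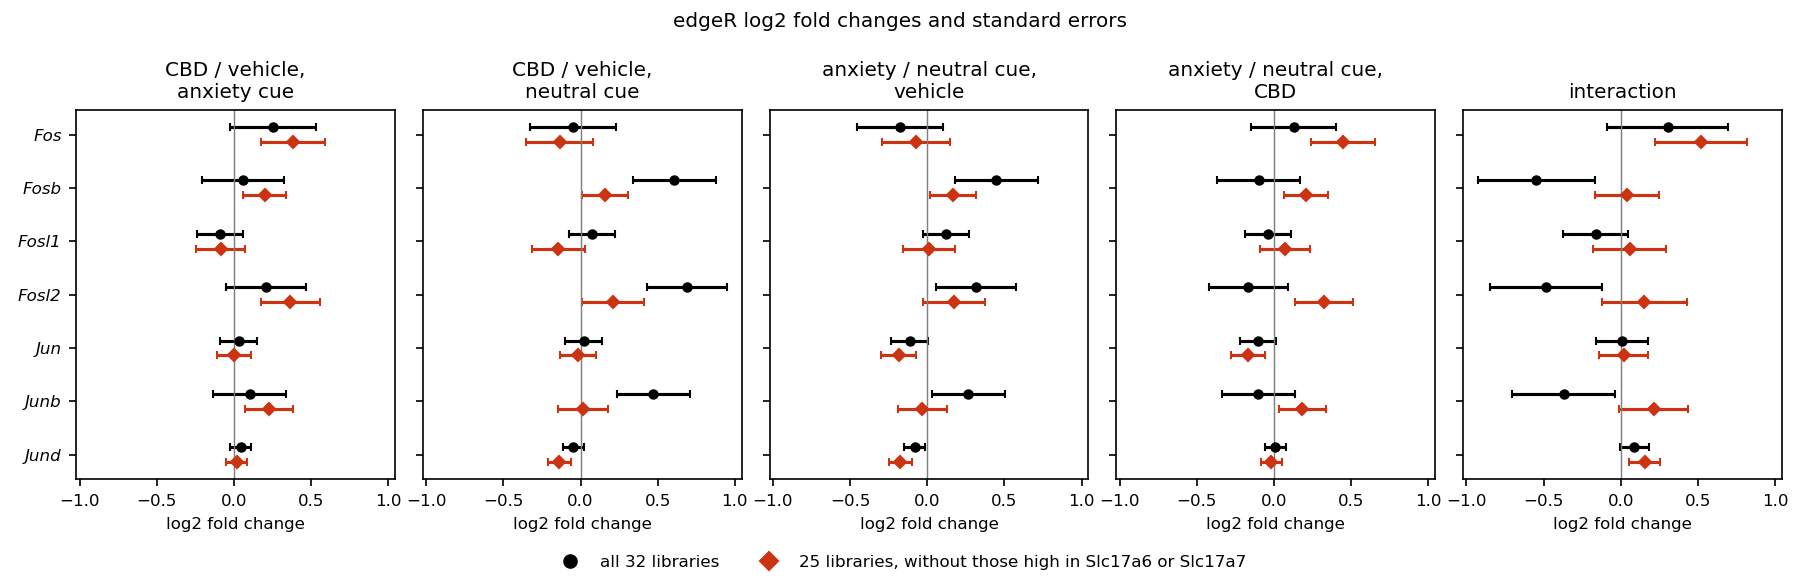
log2 fold change (x axis) with its standard error for each member (rows) in 5 comparisons, from all 32 libraries (circles) and from 25 libraries without those high in Slc17a6 or Slc17a7 (diamonds). With the neutral cue, the values for CBD over vehicle were 0.69 for Fosl2 and 0.61 for Fosb in all libraries and 0.21 and 0.16 in the 25.

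Genes that act with AP-1 were followed as lists. In CBD against vehicle with the neutral cue, the 29 other immediate early genes centred on a log2 fold change of 0.53 (median). Of the 29, 22 lay above 0, and 10 were higher at an unadjusted edgeR p under 0.05. Of all 17059 genes, 8690 lay above 0, with a median of 0.0055, and 10.5% were higher and 12% lower. Egr1, a zinc finger immediate early gene, was at 0.69 (SE 0.258, edgeR adjusted p = 0.141), and Klf10 was at 0.68 (SE 0.250, adjusted p = 0.137). Without the 7 libraries 28 of these genes were tested, and the median was 0.033. There 0 were higher and 1 lower at that threshold, against 10.1% of all genes in either direction. In the 26 libraries of the other reading the median was 0.019, with 0 higher and 1 lower. The 30 upstream kinases and transcription factors had a median of 0.16, with 14 higher and 1 lower. Without the 7 libraries 3 were higher and 0 lower, and in the 26 libraries 2 were higher and 0 lower. Mrtfb, a coactivator of serum response factor, was at 0.70 (SE 0.198, edgeR adjusted p = 0.0916). Of 17 reported AP-1 targets 16 were measured, with 1 higher and 4 lower. Vimentin (Vim), an intermediate filament gene, was at -1.48 (SE 0.362, edgeR adjusted p = 0.0697). Without the 7 libraries Vim passed the adjusted threshold at -1.82 (SE 0.314, adjusted p = 0.0192), as did 0.104% of all genes, and with the 26 libraries of the other reading at an adjusted p of 0.0211. Of 15 partners of AP-1 12 were measured, with a median of -0.035; Atf4, a stress-response factor, was at -0.39 (SE 0.153, edgeR adjusted p = 0.15). The 11 brakes, which are phosphatases and genes of mRNA or protein decay, had a median of 0.15, with 1 higher and 1 lower. With all libraries, 0 genes of the 5 lists passed the adjusted threshold in any comparison.

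The lists were also read in other comparisons, and not every list is given for each. With the anxiety cue, CBD against vehicle gave the 29 other immediate early genes a median of 0.08, with 24 above 0. Of these 29, 0 were at an unadjusted edgeR p under 0.05. Of all 17059 genes, 8236 were above 0, with a median of -0.0033, and 1.58% were at that threshold. The median of the 29 became 0.17 in the 25 libraries and 0.099 in the 26. In the CBD effect averaged over both cues, 26 of the 29 lay above 0 (median 0.24), against 8572 of all genes. That median became 0.087 in the 25 libraries and 0.050 in the 26. For the cue in CBD-treated rats, 22 of the 29 lay below 0 (median -0.16), against 8731 of all genes. Their median was then 0.14 in the 25 libraries and 0.082 in the 26. In vehicle-treated rats, the anxiety cue against the neutral cue gave the upstream list a median of 0.17 with 9 higher and 0 lower at an unadjusted p under 0.05, against 6.41% and 6.34% of all genes, the partners a median of -0.080 with 4 lower, and the other immediate early genes a median of 0.048 with 1 higher, Per1, a clock gene induced by activity, at 0.33 (SE 0.141, edgeR adjusted p = 0.376). The upstream list then had a median of 0.073 in the 25 libraries with 7 higher, and of 0.073 in the 26 with 4 higher. Of all genes, 11.4% were at that threshold in either direction in the 25. The partners were at -0.051 in both with 4 lower, and the other immediate early genes at -0.0049 in the 25 and -0.016 in the 26, with 0 higher and 1 lower in each. In the interaction, 13 of the 30 upstream genes were lower and 0 higher at an unadjusted edgeR p under 0.05. Of all 17059 genes, 1156 were lower and 1197 higher. In the 25 libraries 4 upstream genes were lower and 1 higher, and in the 26 libraries 7 were lower and 1 higher.

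Some members varied together within groups. The libraries high in Slc17a6 form a cluster of their own, and library 6 of CBD with the neutral cue was high in Slc17a7. Correlations are therefore given over the 25 libraries left without these 7, on log2 CPM with each group's mean removed. They were tested by permutation within groups (100000 resamples, two-sided) with adjustment over 21 pairs. Fosb and Fosl2 had Pearson's r = 0.83 and Spearman's rho = 0.84 (permutation p = 1e-05, the smallest these permutations can give; adjusted p = 0.00021). Fosb and Junb had r = 0.74 and rho = 0.67 (adjusted permutation p = 0.00273), Fosl2 and Junb r = 0.71 and rho = 0.66 (adjusted permutation p = 0.00294), and Fos and Junb r = 0.68 and rho = 0.61 (adjusted permutation p = 0.00273). Without the 2 libraries farthest from the median of the first gene, r was 0.80, 0.61, 0.63 and 0.58. These 4 of 21 pairs passed the threshold, and 4 of 21 did in the 26 libraries of the other reading. Over all 32 libraries 5 of 21 pairs passed: the 3 among Fosb, Fosl2 and Junb, Fos with Jun, and Fosb with Fosl1, but not Fos with Junb. Fos and Fosb were at r = 0.34 (adjusted permutation p = 0.248), and Fos and Jun at r = 0.43 (adjusted permutation p = 0.134). Jund passed the threshold with no member: its largest r was 0.36, with Jun (rho = 0.23), and with Junb it had r = 0.30 and rho = 0.52 (adjusted permutation p = 0.0644 for rho). Among the 6 libraries high in Slc17a6, group means were not removed and permutation ran over all 6, so r there also holds differences between groups. So few libraries leave little room to pass the adjusted threshold, and 0 of 21 pairs did. In these 6, Fosb and Junb had r = 0.84, but Fosb and Fosl2 had r = -0.17 and Fosl2 and Junb r = -0.36. The largest r was 0.91, for Fos and Fosl2 (rho = 0.60, adjusted permutation p = 0.496 for r). The libraries share tissue makeup as well as treatment: the mean log2 level of the medium spiny neuron markers had r = 0.75 with Fosb, 0.68 with Fosl2, 0.48 with Junb, -0.04 with Fos and -0.53 with Jun over the 25.

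**Figure D4:**
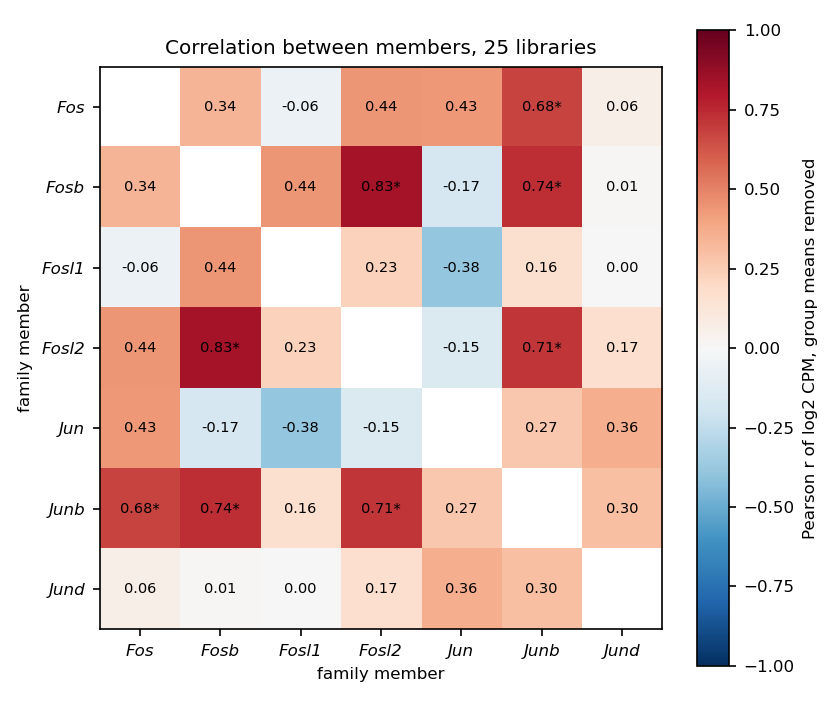
Pearson's r between each pair of members (rows and columns) of log2 CPM with group means removed over 25 libraries; an asterisk marks an adjusted permutation p under 0.05. Fosb, Fosl2 and Junb form a block of r between 0.71 and 0.83, and Fos has r = 0.68 with Junb; no pair with Jund is marked.

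The genes most like each member were ranked by Pearson's r over all 32 libraries, and r over the 25 is given beside it as a description. Closest to Fos were Btg2, an antiproliferative immediate early gene, at 0.87 and 0.86, Klf6 at 0.79 and 0.63, LOC120095096 at 0.77 and 0.54, B3galt2 at 0.76 and 0.44, and Nr4a2, an orphan nuclear receptor, at 0.76 and 0.44. Lrrn1, Bcl2l2, Uap1, Ier2 and Gpr3 followed, at 0.73 to 0.76 over the 32 and 0.38 to 0.55 over the 25. Closest to Fosb was Phlda1 at 0.97 and 0.88, and closest to Junb was Nr4a1 at 0.95 and 0.87. Arc, which encodes a synaptic protein made after activity, was among the 5 closest to Fosl2, at 0.90 and 0.82. Closest to Jund was Dohh, the deoxyhypusine hydroxylase, at 0.87 and 0.89. Over the 25 libraries, Junb ranked 7th of 17058 genes by likeness to Fos, Fosl2 9th for Fosb and Fosb 8th for Fosl2. Those were the closest ranks between members. By likeness to Junb, Fosb ranked 14th, Fosl2 18th and Fos 24th. Junb ranked 64th for Fosb and 84th for Fosl2, Fosb 737th for Fos, and Fos 1827th for Fosb. LOC103691049, a non-coding gene that overlaps Fosb in GRCr8, had 0 to 10 counts a library; the sources used here do not state if reads were assigned by strand.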

How the data were processed

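RNA was selected for poly(A) and sequenced on an Illumina platform, per the labels' protocols. The submitters' processing notes name STAR, featureCounts and DESeq2, without versions, and the builds mRatBN7.2 and Rnor_6.0; which build gave the table is not stated. The authors deposited whole-number counts per gene for 32 libraries. edgeR 4.0.16 (R 4.3.3) was fitted to all 32, with filterByExpr by group, TMM scaling, the quasi-likelihood test and Benjamini-Hochberg adjustment over 17059 genes; 17263 were filtered. Standard errors were taken from the F statistic. Log2 CPM used a prior count of 2. The test was checked on simulated counts for the cue in vehicle. Those counts held no marker differences between libraries, so the check does not cover them. DESeq2 1.42.0, other scalings and filters, marker covariates and leaving out libraries were alternatives. The 7 members and all lists were chosen with earlier results of these data known, and p-values adjusted over a list are not given. Named genes are all members, the 3 list genes with the smallest p in a comparison, and those most like a member (10 for Fos, 5 for others). The rule for leaving out libraries said 20 CPM for Slc17a6 and 100 CPM for Slc17a7 without naming a scale. Plain CPM, scaled to the library total, were taken after seeing that this gave 6 libraries and TMM-scaled CPM 5. Both readings are reported for the main results. Correlations were planned over 32 libraries and are given within the 25. Gene lengths were not used, so levels of different genes are not compared.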

Additional observations from a re-analysis of the deposited data

Results flagged for a closer look

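A library stood far from the others of its group in 2 of 28 sets of log2 CPM (7 members in 4 groups), by the gap to the nearest library divided by the range (Dixon's 95% critical value for 8 libraries). Chance flags about 1 set in 20. Fos in library 6 of CBD with the neutral cue was the highest of its group, with a gap of 0.560 of the range, and that library had Slc17a7 at 877.02 plain CPM. Fosb in library 5 of vehicle with the anxiety cue was the lowest of its group, with a gap of 0.622, and that library had the highest Slc17a6 level, 47.0 plain CPM. The part of either marker in these values was not tested.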

How the results depend on the processing

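The count of members called was 0 in every comparison under all alternatives run, including DESeq2, other scalings and filters, and leaving out each library. With DESeq2, DESeq2 size factors, either filter, or a fit of only the groups compared (not run for the interaction and the averaged effects), the only member to change direction was Jund in the averaged CBD effect, at -0.0012 in the reported fit, 0.0024 with DESeq2, 0.0027 with DESeq2 size factors and 0.00038 with at least 1 CPM in 8 libraries. Under other alternatives some estimates changed direction, none of them past the threshold; the cause was not tested. No paired analysis was possible because the replicate numbers follow accession order and pair no samples.

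Listed here and in the next paragraph are the estimates that changed direction from the reported fit, unless said otherwise. With septal, cortical, oligodendrocyte and choroid plexus markers as covariates, the anxiety cue in vehicle gave 0.16 for Fos and 0.014 for Jun. Fosb and Junb kept their direction there, at 0.075 and 0.010, against 0.45 and 0.27 in the reported fit. CBD with the anxiety cue gave -0.023 for Fosb, -0.030 for Fosl2 and -0.012 for Jun. CBD with the neutral cue gave 0.0044 for Fos, -0.060 for Fosb, -0.19 for Fosl1, -0.023 for Fosl2 and -0.045 for Junb. The cue in CBD gave 0.11 for Fosb, 0.052 for Fosl1, 0.11 for Fosl2 and 0.11 for Junb. The interaction gave 0.036 for Fosb, 0.017 for Fosl1, -0.22 for Jun and 0.10 for Junb, and the averaged CBD effect -0.041 for Fosb and -0.026 for Fosl2; the averaged cue effect gave 0.20 for Fos. With liver and fat markers as covariates, CBD with the neutral cue gave 0.17 for Fos, the interaction -0.054 for Jun, the averaged CBD effect 0.00069 for Fosl1 and 0.021 for Jund, and the averaged cue effect 0.083 for Fos.

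Without the 7 libraries high in Slc17a6 or Slc17a7, the cue in vehicle gave -0.031 for Junb, and CBD with the neutral cue -0.14 for Fosl1 and -0.017 for Jun. The cue in CBD gave 0.21 for Fosb, 0.069 for Fosl1, 0.33 for Fosl2, 0.18 for Junb and -0.017 for Jund. The interaction gave 0.043 for Fosb, 0.057 for Fosl1, 0.15 for Fosl2 and 0.21 for Junb, the averaged CBD effect -0.0078 for Jun, and the averaged cue effect 0.19 for Fos. The reading of the limit on TMM-scaled CPM, added after seeing the data, leaves out 6 libraries. It gave -0.031 for Junb with the cue in vehicle, and -0.14 for Fosl1 and -0.017 for Jun with CBD and the neutral cue. For the cue in CBD it gave 0.068 for Fosb, 0.067 for Fosl1, 0.19 for Fosl2 and 0.071 for Junb, and for the interaction 0.056 for Fosl1, 0.023 for Fosl2 and 0.10 for Junb, with 0.17 for Fos in the averaged cue effect. The interaction for Fosb thus changed direction under the first reading and not under the second, at -0.097.

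Leaving out 1 library at a time, CBD with the anxiety cue ran between -0.051 and 0.11 for Jun and between -0.058 and 0.17 for Fosb. CBD with the neutral cue ran between -0.42 and 0.085 for Fos, -0.032 and 0.057 for Jun, and -0.0068 and 0.16 for Fosl1. The cue in CBD ran between -0.17 and 0.014 for Fosb, -0.11 and 0.038 for Fosl1, -0.010 and 0.022 for Jund, and -0.26 and 0.099 for Fosl2, and the interaction between -0.072 and 0.090 for Jun. The averaged CBD effect ran between -0.082 and 0.19 for Fos, -0.049 and 0.036 for Fosl1, -0.015 and 0.065 for Jun, and -0.021 and 0.025 for Jund, and the averaged cue effect between -0.11 and 0.16 for Fos.

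Among correlations, the sign differed from that over all 32 libraries for Fos with Fosb (0.34 in 25 libraries, 0.33 in 26), Fos with Jund (0.061 and 0.026), Jun with Junb (0.27 and 0.082), and in the 26 for Fosb with Jund (-0.16) and Fosl2 with Jund (-0.0046). Without removal of group means over all 32, Fos with Junb was at -0.025.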
